A study of Mus musculus with 8 samples.

Results

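The 5 genes described here are the type 1 cytokines Ifng, Tnf and Il2 and the death ligands Fasl and Tnfsf10. They were chosen by symbol among the 32285 genes counted in T cells of mouse bone marrow, and all 5 passed the filter on low counts in every comparison across all cells of a lineage. Mice of the C57BL/6 strain fell into 2 groups of 2 pools each, and every pool held the cells of 2 mice. The Runx1::Runx1t1 group carried the conditional knock-in allele Runx1 Runx1t1/+ with Mx1-Cre, and by the study's methods the control group carried that allele without Mx1-Cre, although WT is the genotype in their labels. Mice of both groups received 4 injections of Poly(I:C), a double-stranded RNA analog whose interferon response induces Mx1-Cre, and were killed 4 weeks later, so the interferon stimulus was shared by the controls. The Mx1 promoter is not restricted to 1 cell type. The sort kept live CD3+ cells without mCherry, the reporter of the fusion gene, so the T cells measured did not show the reporter. The pool is the replicate throughout (n = 2 pools per group). P-values of the gene tests are judged against the spread between pools, estimated with information shared over all genes.

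Interferon gamma, encoded by Ifng, and tumor necrosis factor, encoded by Tnf, are cytokines that effector T cells secrete to act on other cells, and Il2 encodes the growth factor that T cells make soon after activation. Fas ligand (Fasl) and TRAIL (Tnfsf10) are membrane proteins of the TNF family that kill target cells through death receptors. In chronically stimulated T cells, which carry the inhibitory receptor PD-1 (Pdcd1), production of IL-2 and TNF is known to fade before that of interferon gamma.

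Gene expression was counted as UMIs, each marking 1 captured mRNA molecule. The 4 libraries held 90958101 to 102883449 UMIs with a median of 6239 to 6368 per barcode, and 53033 of 56649 barcodes were kept. Cells with a Cd3d, Cd3e or Cd3g UMI were split by co-receptor transcripts into 26856 Cd8 cells (Cd8a or Cd8b1 and no Cd4 UMI), 7270 Cd4 cells (the reverse) and 14091 co-receptor-negative cells (no UMI of these genes), while 1750 cells with both and 3066 without a Cd3 UMI were set aside. The median depth was 7038 UMIs in Cd8, 5116 in Cd4 and 5604 in co-receptor-negative cells, and 53.9% of the last had a paired TRA and TRB chain against 79.4% of Cd8 and 79.9% of Cd4 cells. Any pair of libraries shared 249 to 294 cell barcodes, at most 2.07% of the smaller one. Levels are given as CPM, the UMIs of a gene per 1000000 UMIs of the same cells, and a level mixes the number of expressing cells with the amount per cell. Lists of 4 values give the Runx1::Runx1t1 pools and then the control pools, each with replicate 1 first. Levels of different genes are not compared. The 6 myeloid markers summed to 1552 and 492 CPM in co-receptor-negative cells of the control pools and to 62.3 and 135 in those of the Runx1::Runx1t1 pools, the 4 NK markers to 759 and 705 in the control pools against 489 and 341, and the 4 B cell markers stayed between 5.51 and 34.5 in every lineage and pool. The part of such cells, or of free RNA, in the values below was not tested.

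The promoters of the members are shown because over all Cd8 cells Ifng, Fasl and Tnfsf10 were called by Pdcd1 and by clone size below while Tnf and Il2 were not. Each line gives the 250 bases before the RefSeq start on the strand of the gene, in build GRCm38.p6, from chr10:118440796-118441045 for Ifng, chr17:35202008-35202257 for Tnf, chr3:37125955-37126204 for Il2, chr1:161788496-161788745 for Fasl and chr3:27316827-27317076 for Tnfsf10. Capitals mark matches on either strand to GGAAAA, a form of the NFAT site, and to the TATA box TATAAA, which did not overlap each other here. Shorter forms of the NFAT site, such as GGAAA, were not searched for and are not marked.
Ifng: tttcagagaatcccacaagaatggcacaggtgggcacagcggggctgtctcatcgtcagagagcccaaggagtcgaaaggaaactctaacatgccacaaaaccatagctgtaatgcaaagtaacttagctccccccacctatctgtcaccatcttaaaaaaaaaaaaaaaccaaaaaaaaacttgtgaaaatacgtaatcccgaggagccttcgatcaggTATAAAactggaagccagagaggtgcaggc
Tnf: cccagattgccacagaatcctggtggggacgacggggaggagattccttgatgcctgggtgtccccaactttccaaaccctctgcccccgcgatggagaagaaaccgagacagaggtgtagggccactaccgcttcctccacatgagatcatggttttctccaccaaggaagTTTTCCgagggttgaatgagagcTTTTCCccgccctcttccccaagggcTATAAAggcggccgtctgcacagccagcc
Il2: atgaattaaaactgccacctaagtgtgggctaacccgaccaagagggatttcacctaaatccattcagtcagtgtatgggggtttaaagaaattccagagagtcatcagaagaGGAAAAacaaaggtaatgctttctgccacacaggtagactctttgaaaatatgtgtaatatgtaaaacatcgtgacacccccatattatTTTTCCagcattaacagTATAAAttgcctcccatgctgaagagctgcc
Fasl: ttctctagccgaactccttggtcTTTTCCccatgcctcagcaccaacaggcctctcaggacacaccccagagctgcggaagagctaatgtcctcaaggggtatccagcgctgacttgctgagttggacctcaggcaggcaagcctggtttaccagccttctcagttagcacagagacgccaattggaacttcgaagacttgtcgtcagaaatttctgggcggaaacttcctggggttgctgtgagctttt
Tnfsf10: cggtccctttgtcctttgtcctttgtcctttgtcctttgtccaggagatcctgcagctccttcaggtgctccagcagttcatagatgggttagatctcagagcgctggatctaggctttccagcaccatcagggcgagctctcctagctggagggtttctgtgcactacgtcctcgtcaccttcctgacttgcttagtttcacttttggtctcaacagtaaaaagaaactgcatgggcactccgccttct
Ifng, Tnf and Il2 each held TATAAA, ending 24 to 26 bases before the start, and the Fasl and Tnfsf10 windows did not. These letters occurred in 12.4% of the 32851 promoter windows of the same length. Tnf and Il2 each held 2 matches to GGAAAA, Fasl held 1 and Ifng and Tnfsf10 none, against 20.4% of all windows with at least 1. The AP-1 motif TGANTCA (6.75% of windows), the T-box motif GGTGTGA (3.33%) and the Runx motif TGTGGT (14.00%) were not found in the 5 windows. In GENCODE M21 on GRCm38 the genes, all protein-coding, lie at chromosome 10, 118441046 to 118445892 (Ifng, ENSMUSG00000055170), chromosome 17, 35199381 to 35202007 (Tnf, ENSMUSG00000024401), chromosome 3, 37120523 to 37125959 (Il2, ENSMUSG00000027720), chromosome 1, 161780689 to 161788495 (Fasl, ENSMUSG00000000817) and chromosome 3, 27317028 to 27342427 (Tnfsf10, ENSMUSG00000039304).

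Across lineages, Ifng, Tnf and Il2 were lower in Cd8 than in Cd4 cells. In Cd8 cells Ifng stood at 75.4 and 125 CPM in the Runx1::Runx1t1 pools (replicates 1 and 2) and at 57.1 and 84.5 in the control pools (replicates 1 and 2). In Cd4 cells the 4 values, in the same order, were 192, 182, 153 and 169, above every Cd8 value. Co-receptor-negative cells had 122, 123, 137 and 159.9. With edgeR's quasi-likelihood test, blocked on the pool, Ifng had a log2 difference of -0.80 ± 0.12 (SE) in Cd8 against Cd4 cells (adjusted p = 0.00146). The neighbors in this order did not pass it, with -0.27 ± 0.12 (adjusted p = 0.144) for co-receptor-negative against Cd4 cells and 0.55 ± 0.19 (adjusted p = 0.0771) against Cd8 cells. All adjusted p-values are from edgeR with Benjamini-Hochberg adjustment over all genes tested, unless another tool is named.

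Tnf stood at 30.6, 37.8, 32.2 and 45.9 CPM in Cd8 cells, at 57.7, 59.03, 71.01 and 68.4 in Cd4 cells and at 54.4, 64.5, 51.96 and 69.5 in co-receptor-negative cells. The Cd8 values lay below all others, and the other lineages overlapped. By edgeR, Tnf had a log2 difference of -0.55 ± 0.08 (adjusted p = 0.00147) in Cd8 against Cd4 cells and of 0.55 ± 0.05 (adjusted p = 0.000813) in co-receptor-negative against Cd8 cells.

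Il2 had few UMIs, with 12.8, 11.95, 8.17 and 10.98 CPM in Cd4 cells, 4.25, 4.32, 4.44 and 5.94 in co-receptor-negative cells and 2.07, 1.20, 1.75 and 3.75 in Cd8 cells. The 3 lineages did not overlap. By edgeR, Il2 passed the test at each step, with -2.18 ± 0.29 (adjusted p = 0.000852) in Cd8 against Cd4 cells, -1.12 ± 0.18 (adjusted p = 0.00503) in co-receptor-negative against Cd4 cells and 1.01 ± 0.20 (adjusted p = 0.0138) in co-receptor-negative against Cd8 cells. The last call was lost without replicate 1 of the Runx1::Runx1t1 group (1.07, adjusted p = 0.0559) or of the control group (0.94, adjusted p = 0.0532), and that against Cd4 cells was lost with cells thinned to 2000 UMIs (-0.57, adjusted p = 0.0566). In that setting Ifng was called for co-receptor-negative against Cd4 cells instead (-0.35, adjusted p = 0.0181).

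For the death ligands no pair of lineages passed the test over all 4 pools. Fasl stood at 75.6, 116, 49.01 and 68.2 CPM in Cd8 cells, 117, 129, 83.5 and 91.2 in Cd4 cells and 102, 91.7, 107 and 111 in co-receptor-negative cells (edgeR adjusted p between 0.0529 and 0.782). Tnfsf10 stood at 16.6, 26.01, 12.2 and 14.4 in Cd8 cells, 26.2, 29.8, 20.8 and 16.5 in Cd4 cells and 25.96, 23.5, 24.9 and 25.1 in co-receptor-negative cells (edgeR adjusted p between 0.122 and 0.43). Without replicate 2 of the Runx1::Runx1t1 group Fasl was called for Cd8 against Cd4 cells (-0.30, adjusted p = 0.00612), and Fasl (0.56, adjusted p = 0.016), Tnfsf10 (0.63, adjusted p = 0.00283) and Ifng (0.76, adjusted p = 0.00259) were called for co-receptor-negative against Cd8 cells. In all, 3 of the 5 members were called for Cd8 against Cd4 cells, where 44.7% of all genes were, 2 for co-receptor-negative against Cd8 cells (28.4% of genes) and 1 for co-receptor-negative against Cd4 cells (25.8% of genes). With 1 cell kept per clonotype, Ifng, Fasl and Tnfsf10 were also called higher in co-receptor-negative than in Cd8 cells (1.16, adjusted p = 0.000124 for Ifng and 0.92, adjusted p = 0.000499 for Fasl), and Fasl and Tnfsf10 higher than in Cd4 cells (0.48, adjusted p = 0.000801 and 0.55, adjusted p = 0.00306).

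**Figure D1:**
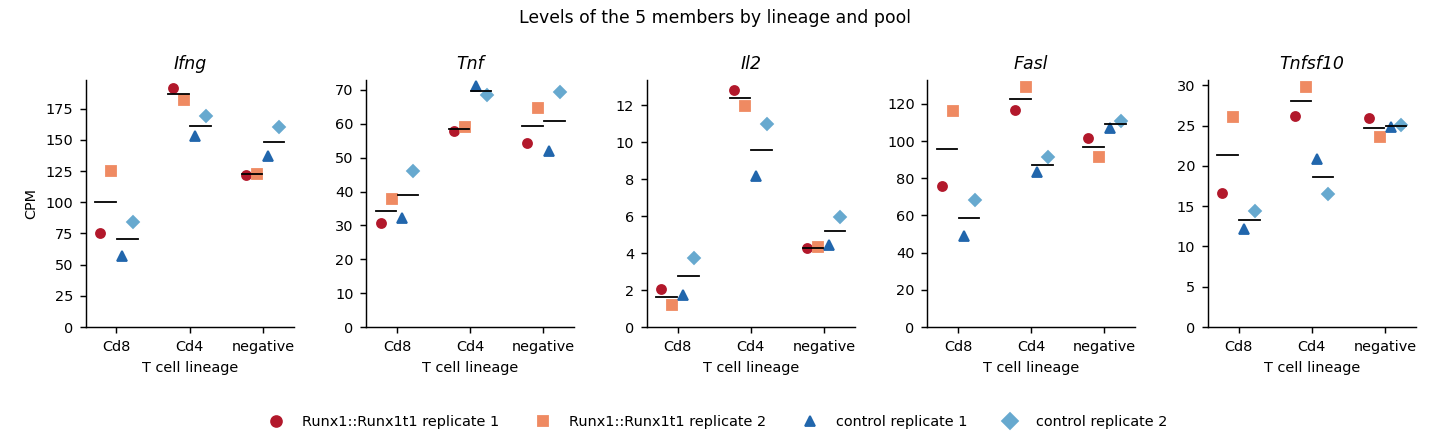
Levels of the 5 members in CPM (vertical axes) by T cell lineage (horizontal axes, where negative stands for co-receptor-negative), with 1 point per pool and a bar at the mean of each group of 2 pools. Il2 in Cd4 cells (8.17 to 12.8) lies above Il2 in Cd8 cells (1.20 to 3.75) in every pool, and Fasl in Cd8 cells is higher in both Runx1::Runx1t1 pools than in both control pools.

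Within the co-receptor-negative cells the members were spread unevenly. Cells with the TRAV11-TRAJ18 chain of invariant NKT cells, 6.34% to 10.05% of the lineage, had Ifng at 283, 334, 331 and 374 CPM and Tnf at 112, 132, 109 and 120.2. Cells with paired chains and a Klrb1c UMI, the gene of NK1.1, had Ifng at 129.6, 194, 152 and 175. Cells with paired chains without Klrb1c had 86.5, 83.5, 57.7 and 100.2. The TRAV11-TRAJ18 cells thus lay above both in each pool. Cells with a UMI of Trdc, the delta constant gene, and no paired chains had Ifng at 122, 116, 135 and 159.6 and Tnf at 59.5, 74.03, 52.4 and 72.5. The makeup of the lineage moved with the group. Cells with paired chains and Klrb1c were 10.3% and 6.70% of it in the Runx1::Runx1t1 pools and 23.4% and 23.6% in the control pools, and Trdc cells without a pair were 13.1% and 12.8% against 22.6% and 21.9%. Cells with paired chains without Klrb1c were 36.3% and 34.8% against 21.8% and 23.2%. The remaining cells, with neither a pair nor Trdc, were 30.2% and 39.3% against 23.8% and 22.9%. Their median depth was 3122 and 2684 UMIs against 3778 and 4455.5, and shares of cells with a UMI depend on depth.

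Most cells had no UMI of a given member. In Cd8 cells the share with an Ifng UMI was 23.8% (95% Wilson interval 22.8 to 24.8) and 37.3% (95% Wilson interval 36.2 to 38.4) in the Runx1::Runx1t1 pools. It was 18.5% (95% Wilson interval 17.5 to 19.5) and 24.9% (95% Wilson interval 23.9 to 25.98) in the control pools. Il2 UMIs were seen in 0.816% to 2.22% of Cd8 cells and in 3.61% to 5.41% of Cd4 cells. For comparison, barcodes with neither a Cd3 UMI nor a TCR contig were counted, at a median depth of 1130.5 to 1502 UMIs. They had an Ifng UMI in 2.91% to 3.82%, Il2 in 0% to 0.431% and Fasl in 4.74% to 8.09%. They had a Tnf UMI in 9.33% to 15.4% and a Tnfsf10 UMI in 4.89% to 12.1%, while Cd8 cells, at several times that depth, had Tnf in 16.1% to 21.7% and Tnfsf10 in 8.08% to 17.3%. As levels, which do not depend on depth, these barcodes had Tnf at 35.8, 36.2, 39.9 and 23.5 CPM against 30.6, 37.8, 32.2 and 45.9 in Cd8 cells and Tnfsf10 at 43.2, 42.4, 9.60 and 18.3 against 16.6, 26.01, 12.2 and 14.4. Thinned to 2000 UMIs, Tnf was seen in 5.04% to 8.33% of them against 5.49% to 7.65% of Cd8 cells and Tnfsf10 in 1.44% to 10.4% against 2.36% to 5.24%. For Tnf and Tnfsf10 the Cd8 cells thus overlapped these barcodes on both measures. Which cells these barcodes hold was not tested, so they do not measure free RNA alone. Those with UMIs of at least 2 B cell markers, 16, 2, 38 and 7 in number, had 0 Tnfsf10 UMIs. Of them 1 barcode, in replicate 1 of the control group, had Tnf UMIs. The level of 3 counts in these few barcodes was 28.5, 280, 18.2 and 36.2 CPM. For Ifng the levels were 14.1, 11.2, 6.82 and 5.83 CPM in these barcodes and for Fasl 18.1, 20.8, 10.4 and 14.1. Intervals cover counting error only.

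The 1% of Cd8 cells with most UMIs of a member held a like share of them for Ifng (14.7% to 21.4% in the 4 pools), Tnf (14.4% to 19.7%) and Tnfsf10 (13.1% to 19.5%), 7.04% to 14.02% for Fasl and 55.4% to 100% for Il2, which had few UMIs. The highest cell of a lineage and pool had 17 to 57 Ifng UMIs, and no cell had more than 24 Tnf, 12 Fasl, 13 Il2 or 6 Tnfsf10 UMIs. Among Cd8 cells thinned to 2000 UMIs each, cells with an Ifng UMI had a Fasl UMI in 28.1%, 34.2%, 22.6% and 25.9%, against 12.5%, 18.9%, 7.20% and 9.85% of cells without one. For Tnf the shares were 8.03%, 7.14%, 12.2% and 16.5% against 5.21%, 5.19%, 4.88% and 6.42%. Both genes were detected more often beside Ifng in each pool, and for Tnf the share beside Ifng was lower in both Runx1::Runx1t1 pools than in both control pools.

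Between the groups, 1 member passed the test in 1 lineage. In Cd4 cells Fasl, at 117 and 129 CPM in the Runx1::Runx1t1 pools and 83.5 and 91.2 in the control pools, had a log2 difference of 0.54 ± 0.09 (adjusted p = 0.0361) by edgeR, the only call among the 5 members where 2.11% of all genes were called. It was not called without replicate 1 (0.59, adjusted p = 0.0985) or replicate 2 (0.47, adjusted p = 0.182) of the Runx1::Runx1t1 group or without replicate 1 of the control group (0.44, adjusted p = 0.0887), and it stood at -0.07 ± 0.09 (adjusted p = 0.811) with 1 cell per clonotype and at -0.19 ± 0.09 (adjusted p = 0.454) in single-cell clonotypes alone, a choice made after the data were seen. Tnfsf10 in Cd4 cells had 0.63 ± 0.13 (adjusted p = 0.0687). Markers of other cells moved with the group in Cd4 cells. The 4 NK markers summed to 83.3 and 41.2 CPM in the Runx1::Runx1t1 pools against 211 and 181 in the control pools (2 of 4 tested called lower, median log2 difference -1.64), the 4 naive T cell markers to 696 and 783 against 990.3 and 937 (1 of 4 tested called lower, median log2 difference -0.42), the 6 myeloid markers to 66.3 and 11.4 against 90.3 and 58.5 (2 of 5 tested called lower, median log2 difference -1.95) and the 5 gamma-delta markers to 13.8 and 23.97 against 41.8 and 31.5 (1 of 5 tested called lower, median log2 difference -0.95). Their part in the Fasl difference was not tested.

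In Cd8 cells edgeR called no member between the groups, where 0.120% of genes were called and 2857 genes had an unadjusted p under 0.05, and DESeq2 called 1, Fasl (0.65, adjusted p = 0.0335). By edgeR, Fasl had 0.64 ± 0.22 (adjusted p = 0.191), Tnfsf10 0.61 ± 0.19 (adjusted p = 0.168) and Ifng 0.43 ± 0.26 (adjusted p = 0.392). Tnf had -0.26 ± 0.18 (adjusted p = 0.446) and Il2 -0.81 ± 0.46 (adjusted p = 0.362). Fasl and Tnfsf10 were higher in both Runx1::Runx1t1 pools than in both control pools. Without replicate 1 of the Runx1::Runx1t1 group, which leaves 1 pool there, they had 0.88 and 0.86. The makeup of the Cd8 cells moved with the group, since 24.8% and 44.3% of those with paired chains in the Runx1::Runx1t1 pools belonged to clonotypes of 2 or more cells, against 8.22% and 14.8% in the control pools. In single-cell clonotypes alone, a choice made after the data were seen, the differences were 0.08 ± 0.11 for Fasl, 0.06 ± 0.10 for Tnfsf10 and -0.13 ± 0.19 for Ifng, none of them called.

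In co-receptor-negative cells edgeR called no member, where 6.43% of genes were called and 2920 genes had an unadjusted p under 0.05. Ifng had -0.35 ± 0.09 (adjusted p = 0.0704 by edgeR and 0.0251 by DESeq2). Without replicate 1 of the Runx1::Runx1t1 group, which leaves 1 pool there, Ifng and Fasl had -0.38 and -0.36. As shares of cells with a UMI, the 2 groups of pools did not overlap for 2 of 5 members in Cd8 cells, where 70.0% of genes did not, for 5 in Cd4 cells (55.7% of genes) and for 5 in co-receptor-negative cells (65.5% of genes). The exact permutation test of 2 against 2 pools cannot give a p under 0.3333. With cells thinned to 2000 UMIs, 6 of these 15 shares did not overlap, against 12 without thinning.

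Cells with a Pdcd1 UMI were 8.84% and 30.3% of Cd8 cells in the Runx1::Runx1t1 pools and 1.90% and 1.74% in the control pools. Their median depth was 5118 to 6324 UMIs, against 6798 to 7817 without Pdcd1. In Cd8 cells with Pdcd1, Ifng stood at 200.2, 227, 129.9 and 254 CPM, against 65.7, 89.3, 55.5 and 81.7 without. Each value with Pdcd1 lay above all 4 without, and the log2 difference by edgeR was 1.20 ± 0.09 (adjusted p = 0.000276). Fasl stood at 186, 225, 102 and 138 with Pdcd1 against 67.05, 77.9, 47.8 and 67.02 without (1.06 ± 0.10, adjusted p = 0.000663). Tnfsf10 stood at 36.4, 50.6, 19.01 and 28.2 against 15.1, 17.3, 12.02 and 14.2 (0.98 ± 0.15, adjusted p = 0.00352). These 3 of 5 members were called, where 23.5% of all genes were.

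Tnf was not called. In Cd8 cells with Pdcd1 it stood at 26.3 and 15.7 CPM in the Runx1::Runx1t1 pools, below the 30.9 and 45.7 of cells without. In the control pools it stood at 47.5 and 61.3, above the 31.9 and 45.7 of cells without. Over the 4 pools the difference was -0.61 ± 0.33 (adjusted p = 0.214) by edgeR, and it passed the test with 2 or more Pdcd1 UMIs (-1.74, adjusted p = 0.00302) and with cells thinned to 2000 UMIs (-1.40, adjusted p = 5.49e-05). Il2 rested on 1 to 16 UMIs per pool in Cd8 cells with Pdcd1 and had 0.11 ± 0.41 (adjusted p = 0.89).

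In Cd4 cells 1 of 5 members was called, where 13.4% of genes were. Il2 was lower in Cd4 cells with Pdcd1, at 6.61, 7.56, 6.99 and 6.66 CPM against 14.7, 13.8, 8.49 and 11.6 without, and every value with Pdcd1 lay below all values without (-0.94 ± 0.19, adjusted p = 0.011, edgeR). The values with Pdcd1 rest on 23, 34, 9 and 5 Il2 UMIs, and the call was lost by DESeq2 (adjusted p = 0.0685), without replicate 1 (-0.79, adjusted p = 0.113) or replicate 2 (-0.94, adjusted p = 0.0684) of the Runx1::Runx1t1 group and with 1 cell per clonotype (-0.58, adjusted p = 0.397). Ifng stood at 207, 267, 171 and 179.7 with Pdcd1 against 187, 145, 148 and 168 without (0.29 ± 0.12, adjusted p = 0.158), and Tnfsf10, at 0.48 ± 0.14 (adjusted p = 0.0508), was called without replicate 2 of the control group (0.57, adjusted p = 0.0183). In co-receptor-negative cells edgeR and DESeq2 called 0 and 0 members, where edgeR called 11.5% of genes and 2560 genes had an unadjusted p under 0.05. Fasl there had -0.63 ± 0.21 (adjusted p = 0.075) and Ifng -0.50 ± 0.20 (adjusted p = 0.14), and both were called without replicate 2 of the Runx1::Runx1t1 group (-0.85, adjusted p = 0.0268 and -0.85, adjusted p = 0.00187).

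**Figure D2:**
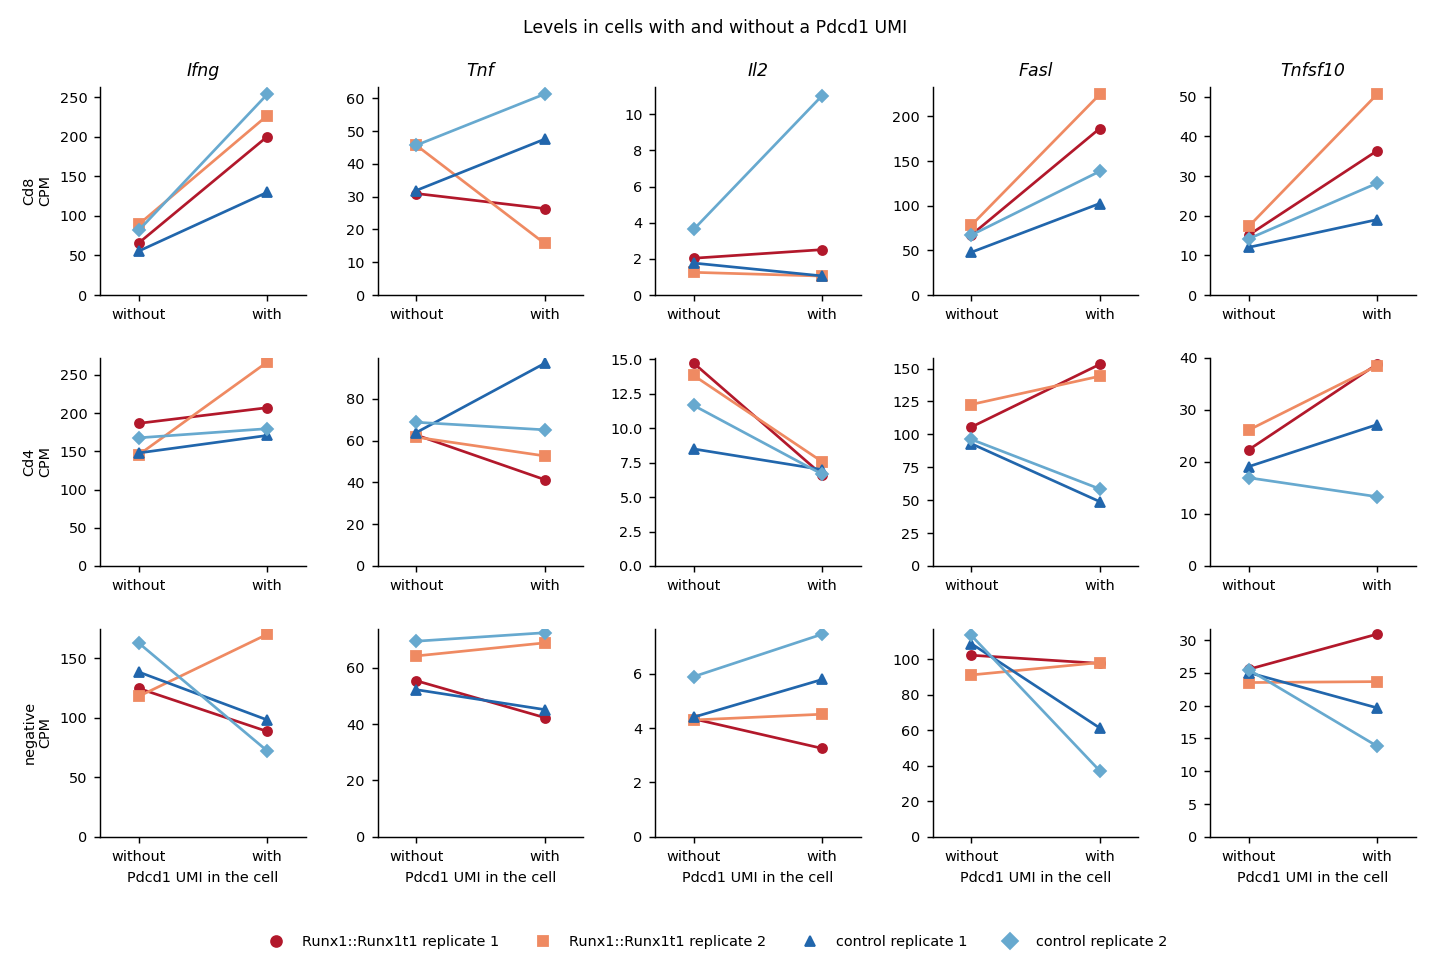
Levels in CPM (vertical axes) in cells without and with a Pdcd1 UMI (horizontal axes), with a line per pool, for Cd8, Cd4 and co-receptor-negative cells (rows) and the 5 members (columns). In Cd8 cells the lines of Ifng, Fasl and Tnfsf10 go up in all 4 pools, while those of Tnf go down in the Runx1::Runx1t1 pools and up in the control pools.

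By clone size, Ifng, Fasl and Tnfsf10 were higher in Cd8 cells of expanded clonotypes. A clonotype was defined by identical CDR3 nucleotides of the TRA and TRB chains, and expanded clonotypes had 2 or more cells in the pool. In expanded Cd8 cells Ifng stood at 223, 249, 231 and 258 CPM, against 40.97, 57.5, 44.4 and 63.7 in single-cell clonotypes (1.99 ± 0.09, adjusted p = 0.000572, edgeR). Fasl stood at 207, 254, 159 and 201 against 45.3, 53.3, 42.01 and 51.8 (1.83 ± 0.07, adjusted p = 0.000427). Tnfsf10 stood at 31.5, 52.8, 20.5 and 23.5 against 12.7, 13.4, 11.6 and 13.7 (1.01 ± 0.20, adjusted p = 0.0187). For each of these 3 genes the expanded cells of every pool lay above all single-cell clonotypes. The 3 of 5 calls compare with 23.9% of all genes, and Tnfsf10 was not called without replicate 1 of the Runx1::Runx1t1 group (0.99, adjusted p = 0.107).

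Tnf in expanded Cd8 cells stood at 31.8 and 21.1 CPM in the Runx1::Runx1t1 pools, against 29.9 and 42.95 in single-cell clonotypes, and at 67.6 and 77.9 in the control pools, against 31.2 and 41.9. It was higher in expanded clonotypes of both control pools, and over all pools the difference was 0.01 ± 0.37 (adjusted p = 0.991) by edgeR. In clonotypes of 2 to 4 cells Tnf stood at 43.7, 46.00, 62.5 and 72.96, and in clonotypes of 5 to 19 cells at 37.5, 38.2, 76.96 and 79.7. In clonotypes of 20 or more cells it stood at 19.98 and 15.3 in the Runx1::Runx1t1 pools, from 632 and 1952 cells, and at 97.8 in replicate 2 of the control group, from 92 cells, while replicate 1 of the control group had no such Cd8 cell. The largest clonotypes of the Runx1::Runx1t1 pools thus had the lowest Tnf of the 4 steps. Ifng over the same steps went from 176, 313, 198 and 225 to 239.5, 353, 291 and 268 and then to 243, 225 and 401. Il2 had 1.47 ± 0.45 (adjusted p = 0.0612), and it was called by DESeq2 (adjusted p = 0.019) and without replicate 2 of the Runx1::Runx1t1 group (1.95, adjusted p = 0.00421).

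**Figure D3:**
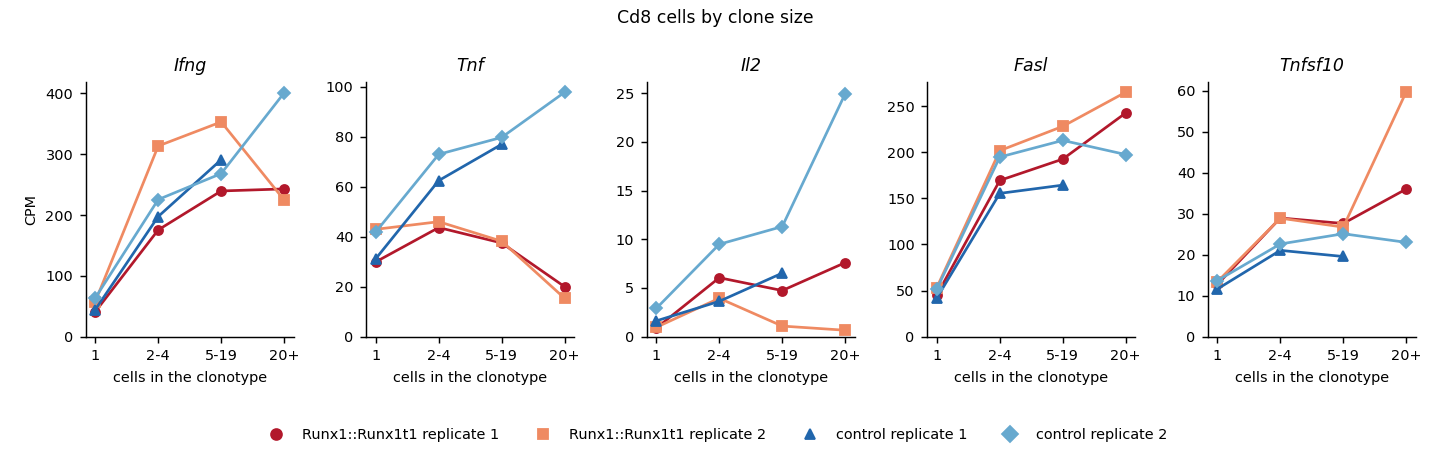
Levels in Cd8 cells in CPM (vertical axes) by the number of cells of the clonotype in its pool (horizontal axes), with a line per pool. Ifng and Fasl step up from single cells to clonotypes of 2 to 4 cells in each pool, and Tnf in clonotypes of 20 or more cells is at 19.98 and 15.3 in the Runx1::Runx1t1 pools.

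In Cd4 cells 2 of 5 members were called, both higher in expanded clonotypes, where 8.39% of genes were called in either direction. Ifng stood at 305, 241, 243 and 325 CPM against 121, 118, 135 and 138 in single-cell clonotypes (1.05 ± 0.09, adjusted p = 0.000425, edgeR). Tnfsf10 stood at 35.96, 41.4, 24.3 and 25.5 against 18.5, 18.4, 19.97 and 16.1 (0.79 ± 0.16, adjusted p = 0.0191), and it was not called without replicate 1 (0.72, adjusted p = 0.139) or replicate 2 (0.62, adjusted p = 0.109) of the Runx1::Runx1t1 group. Il2 had -0.06 ± 0.16 (adjusted p = 0.896), and Fasl, at 0.64 ± 0.26 (adjusted p = 0.182), was called without replicate 1 of the control group (0.94, adjusted p = 0.0329). In co-receptor-negative cells 1 of 5 members was called, where 8.06% of genes were. Il2 stood there at 8.04, 7.57, 11.99 and 24.99 in expanded clonotypes against 4.57, 4.27, 5.81 and 6.38 (1.14 ± 0.29, adjusted p = 0.0343, edgeR). It was not called by DESeq2 (adjusted p = 0.079), without replicate 1 of the Runx1::Runx1t1 group (1.28, adjusted p = 0.104) or without replicate 1 (1.21, adjusted p = 0.0579) or replicate 2 (0.77, adjusted p = 0.247) of the control group, while Ifng and Fasl were called without replicate 1 of the control group (0.40, adjusted p = 0.0125 and 0.62, adjusted p = 0.00226).

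Markers of naive T cells moved with both comparisons. The 4 markers Ccr7, Lef1, Tcf7 and S1pr1 summed to 309, 101, 553 and 395 CPM in Cd8 cells of expanded clonotypes against 1361, 1529, 1352 and 1135 in single-cell clonotypes, and to 294, 166, 810.0 and 603 with Pdcd1 against 1259, 1372, 1338 and 1083 without. They were lower in all 4 pools in expanded clonotypes and in cells with Pdcd1. Other markers moved as well. By Pdcd1 in Cd8 cells 3 of 4 NK markers were called lower (median log2 difference -1.09) and 3 of 5 gamma-delta markers higher (median 1.27), while by clone size none of either list was called. In Cd4 cells 4 of 4 naive and 3 of 3 NK markers were called lower by Pdcd1 (medians -1.10 and -1.75), and 4 of 4 and 3 of 3 by clone size (medians -1.26 and -2.16). In co-receptor-negative cells 4 of 4 NK and 2 of 4 naive markers were called lower by Pdcd1 (medians -1.61 and -0.46), and 3 of 5 gamma-delta markers higher (median 0.63). By clone size 3 of 4 naive and 2 of 4 gamma-delta markers were called lower there (medians -0.65 and -1.01), and 0 of 4 NK markers. The part of these markers' cells in the differences above, those of Il2, Ifng and Tnfsf10 in Cd4 cells included, was not tested.

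The comparison by Pdcd1 was repeated within expanded and within single-cell clonotypes, choices made after the data were seen. Within expanded clonotypes the difference by Pdcd1 was -0.02 ± 0.14 (adjusted p = 0.977) for Ifng, 0.07 ± 0.09 (adjusted p = 0.755) for Fasl, 0.41 ± 0.12 (adjusted p = 0.0453) for Tnfsf10 and -1.85 ± 0.31 (adjusted p = 0.00282) for Tnf. Tnf in expanded Cd8 cells with Pdcd1 stood at 14.8, 7.995, 66.4 and 54.02 CPM, against 38.7, 52.4, 67.8 and 79.2 in those without. It was lower in both Runx1::Runx1t1 pools and in replicate 2 of the control group, and nearly equal in replicate 1 of that group. Of the 390 and 818 expanded Cd8 cells of the control pools, 8.97% and 5.99% had Pdcd1. Il2 rested on few UMIs, as all Cd8 cells with Pdcd1, expanded or not, held 10, 16, 1 and 9. In the expanded ones it stood at 0, 0.184, 0 and 11.6 CPM, against 8.87, 3.08, 5.13 and 11.7 in expanded cells without Pdcd1 (adjusted p = 0.0119, edgeR). The 2 values of 0 allow up to 1.24 and 15.3 CPM, the level of 3 counts. In single-cell clonotypes the difference by Pdcd1 was 1.41 ± 0.10 (adjusted p = 7.39e-12) for Ifng, 0.91 ± 0.12 (adjusted p = 9.27e-07) for Fasl, 1.85 ± 0.56 (adjusted p = 0.0239) for Il2, 0.56 ± 0.22 (adjusted p = 0.0844) for Tnfsf10 and 0.21 ± 0.15 (adjusted p = 0.433) for Tnf, and the Il2 value rests on 3, 6, 1 and 5 UMIs in cells with Pdcd1.

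**Figure D4:**
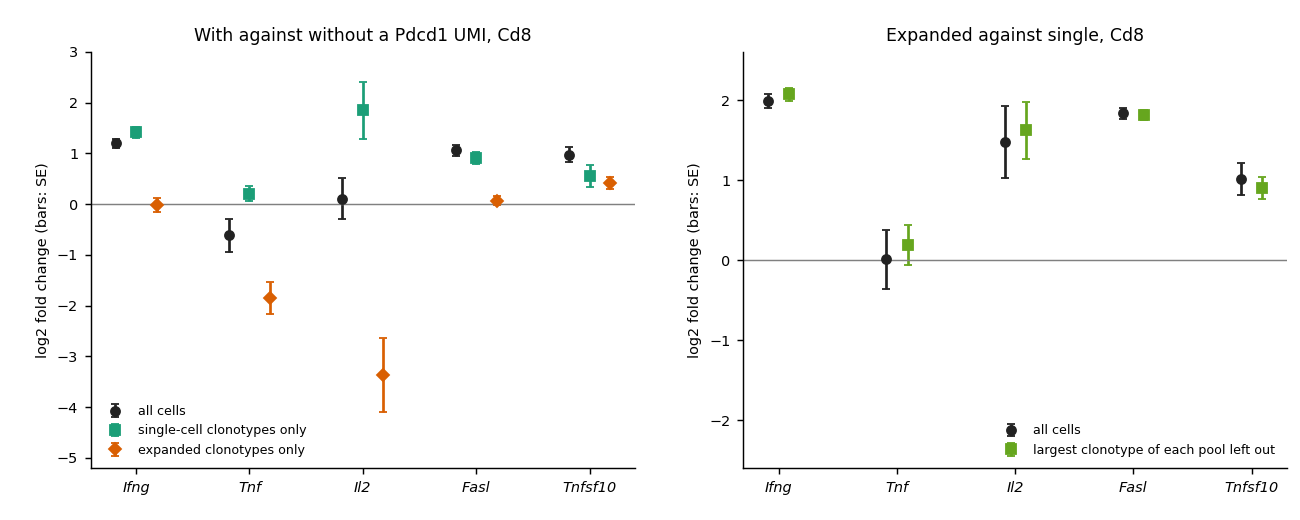
Log2 fold changes (vertical axes, bars are SE) of the 5 members in Cd8 cells, with against without a Pdcd1 UMI on the left and expanded against single-cell clonotypes on the right, for all cells, for single-cell or expanded clonotypes alone and without the largest clonotype of each pool. Ifng by Pdcd1 is at 1.20 in all cells and at -0.02 within expanded clonotypes, while Tnf is at -0.61 and at -1.85.

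Single clonotypes could be compared within 1 library. The largest was a Cd8 clonotype of 1106 cells in replicate 2 of the Runx1::Runx1t1 group, with Pdcd1 UMIs in 82.1% of its cells, and the next of that pool had 172 cells with Pdcd1 in 8.72%. The CDR3 sequences of this pair are shown because its levels of Tnf lay far apart.
Largest, TRA: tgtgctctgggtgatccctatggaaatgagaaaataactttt
Largest, TRB: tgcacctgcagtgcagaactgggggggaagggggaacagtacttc
Next, TRA: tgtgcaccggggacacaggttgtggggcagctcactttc
Next, TRB: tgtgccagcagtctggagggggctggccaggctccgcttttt
The largest clonotype used TRAV6-6 with TRAJ48 and TRBV1 with TRBJ2-7, and the next used TRAV8D-2 with TRAJ5 and TRBV26 with TRBJ1-5. The largest held 11 Tnf UMIs in all its cells, 1.69 CPM, and the next held 107, or 136 CPM. Their Ifng levels were 166 and 271 CPM, their Fasl levels 278 and 434 and their Tnfsf10 levels 71.4 and 51.98. The third clonotype of that pool (159 cells, 79.9% with Pdcd1) had 0 Tnf UMIs, which allows up to 3.01 CPM, 261 CPM of Ifng and 263 of Fasl.

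In replicate 1 of the Runx1::Runx1t1 group the largest clonotype was mostly Cd4 cells (121 of 136, 83.8% with Pdcd1) and had Ifng at 234, Fasl at 196 and Tnf at 12.3 CPM. The next, with 111 Cd8 cells of 113 (78.8% with Pdcd1), had Ifng at 225, Fasl at 161 and 0 Tnf UMIs (up to 4.12 CPM). The third, with 102 Cd8 cells of 103 (66.99% with Pdcd1), had Ifng at 159, Fasl at 314 and Tnf at 13.2. Il2 had 0 UMIs in each of the 3, which allows up to 5.67 CPM. In the control group the largest clonotypes were smaller. That of replicate 1 had 35 cells, 30 of them Cd4 (82.9% with Pdcd1), with Ifng at 250.2, Tnf at 76.5 and Fasl at 27.8 from 4 UMIs. That of replicate 2 had 40 cells, 37 of them co-receptor-negative and none with Pdcd1, with Ifng at 290.3, Tnf at 28.5 and Fasl at 285, and the next, with 24 Cd8 cells of 25, had Ifng at 384, Tnf at 123 and Fasl at 232.

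There were 30 clonotypes with 20 or more Cd8 cells, 12 and 14 of them in the Runx1::Runx1t1 pools and 4 in replicate 2 of the control group. Of these, 16 had Pdcd1 UMIs in at least 50% of their Cd8 cells, all of them from the Runx1::Runx1t1 group. In these 16 Tnf ran from 0 to 20.3 CPM with a median of 5.40, and Il2 from 0 to 0.311 with a median of 0. The Il2 value above 0 came from the largest, with 1093 Cd8 cells. The smallest had 20 Cd8 cells, where 1 UMI weighs several CPM, so a value of 0 there does not set a low limit. In the other 14 Tnf ran from 8.07 to 169 with a median of 67.5, and Il2 from 0 to 32.5 with a median of 10.2. The Tnf ranges thus overlapped in part. Ifng overlapped between the classes too, from 76.2 to 388 (median 248) and from 161 to 707 (median 397). Fasl ran from 132 to 417 (median 230.4) and from 122 to 429 (median 234), and Tnfsf10 had medians of 43.5 and 19.9. This division was made after the data were seen, clonotypes of 1 pool share their library, and no test was made of it.

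**Figure D5:**
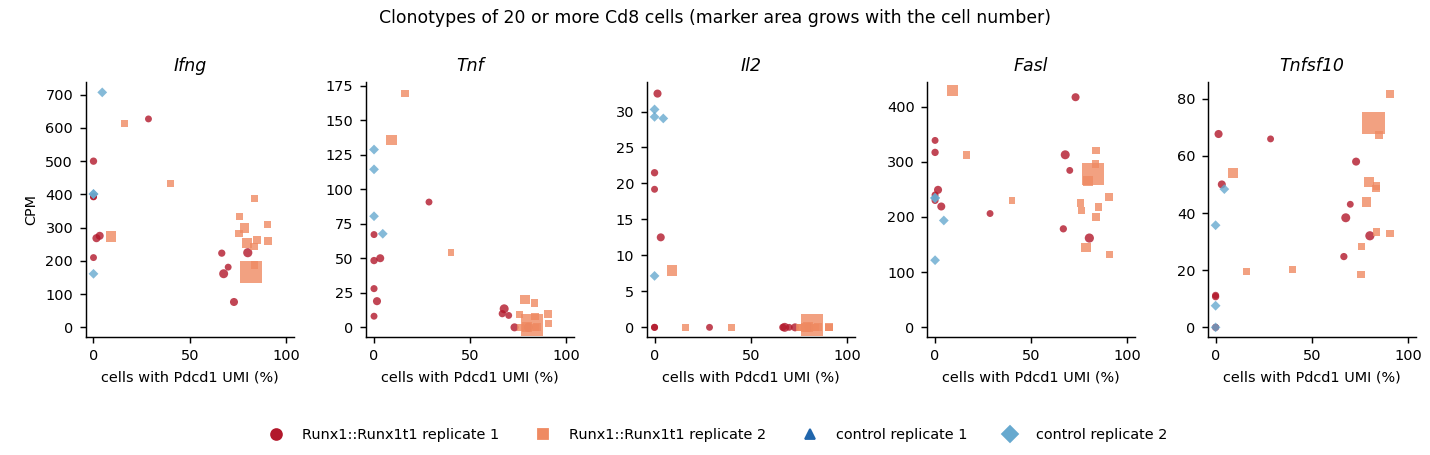
Each point is 1 of the 30 clonotypes with at least 20 Cd8 cells, placed by the percent of its Cd8 cells with a Pdcd1 UMI (horizontal axes) and by the level of a member in CPM (vertical axes), with the marker by pool and its area growing with the number of cells. Points at 50% or more lie at 0 to 20.3 for Tnf and the others at 8.07 to 169, so these ranges overlap in part. Ifng and Fasl of the same clonotypes overlap those of the others as well.

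Whether the differences by Pdcd1 and by clone size were themselves different between the groups was tested with interaction terms, of which those for Cd4 and co-receptor-negative cells were added after the data were seen. Fasl in Cd4 cells of the Runx1::Runx1t1 pools stood at 153 and 144 CPM with Pdcd1 against 105 and 123 without, and in the control pools at 48.9 and 58.6 against 92.96 and 96.2. It was higher with Pdcd1 in both Runx1::Runx1t1 pools and lower in both control pools. The interaction by edgeR was 1.25 ± 0.17 (adjusted p = 0.00385), 1 of 5 members where 1.50% of genes were called, and it was not called without replicate 1 of the control group (1.14, adjusted p = 0.115). Without replicate 1 of the Runx1::Runx1t1 group Ifng was called as well (0.76, adjusted p = 0.000803), and without replicate 2 Tnf was (-0.90, adjusted p = 0.0158).

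By clone size in Cd4 cells, Fasl stood at 174 and 194 CPM in expanded against 79.6 and 74.4 in single-cell clonotypes of the Runx1::Runx1t1 pools, and at 72.3 and 101 against 89.5 and 92.1 in the control pools. The interaction by edgeR was 1.37 ± 0.17 (adjusted p = 0.00908), and it was lost when replicate 1 of the control group was left out (1.15, adjusted p = 0.0685). Tnf had the opposite sign, with 62.4 and 52.8 against 56.9 and 63.7 in the Runx1::Runx1t1 pools and 113 and 103 against 53.3 and 58.7 in the control pools (-1.01 ± 0.18, adjusted p = 0.0406, edgeR). These 2 of 5 members were called where 0.946% of genes were. The Tnf call was lost by DESeq2 (adjusted p = 0.13), without replicate 2 of the Runx1::Runx1t1 group (-0.81, adjusted p = 0.213) and without replicate 1 (-0.86, adjusted p = 0.262) or replicate 2 (-1.11, adjusted p = 0.0625) of the control group.

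In Cd8 cells no interaction of a member passed the threshold of edgeR. Tnf by Pdcd1 had -1.51 ± 0.38 (adjusted p = 0.0557 by edgeR and 0.0451 by DESeq2), where 3.49% of all genes were called and 2253 genes had an unadjusted p under 0.05. Tnf by clone size had -1.56 ± 0.35 (adjusted p = 0.152 by edgeR and 0.0127 by DESeq2), where edgeR called 0% of genes, 2135 genes had an unadjusted p under 0.05 and DESeq2 called 188. Tnf was called without replicate 1 of the Runx1::Runx1t1 group by Pdcd1 (-2.03, adjusted p = 1.9e-15) and by clone size (-2.10, adjusted p = 9.49e-54), and by clone size also without replicate 2 (-0.96, adjusted p = 8.09e-09), fits that leave few degrees of freedom. By clone size without replicate 1, Il2 (-1.86, adjusted p = 0.0301) and Tnfsf10 (1.08, adjusted p = 3.32e-06) were called too. Ifng had 0.02 ± 0.15 by Pdcd1 and 0.00 ± 0.17 by clone size.

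In co-receptor-negative cells Fasl by Pdcd1 was called (1.26 ± 0.22, adjusted p = 0.0202, edgeR), 1 of 5 members where 0.332% of genes were. Its levels were 97.6 and 98.1 CPM with Pdcd1 against 102 and 91.1 without in the Runx1::Runx1t1 pools and 61.3 and 37.2 against 109 and 113 in the control pools. The call was lost without replicate 1 (1.36, adjusted p = 0.113) or replicate 2 (1.17, adjusted p = 0.146) of the Runx1::Runx1t1 group and without replicate 2 of the control group (0.91, adjusted p = 0.0703), and without replicate 1 of the Runx1::Runx1t1 group Ifng was called (1.42, adjusted p = 0.0395). By clone size edgeR and DESeq2 called 0 and 0 members, where edgeR called 0.0887% of genes and 654 genes had an unadjusted p under 0.05. Without replicate 2 of the control group, which leaves 1 pool there, Fasl had 1.09.

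Genes around the members were taken from lists of receptors, death signaling, drivers, mRNA decay, activation and other TNF ligands. Their counts in Cd8 cells stand beside 23.5% of all genes called in either direction by Pdcd1 and 23.9% by clone size. Of 11 receptors of the members tested in Cd8 cells by Pdcd1, 2 rose and 5 fell, with a median log2 difference of -0.46 against -0.01 over all genes. On the log2 scale by edgeR, Ifngr2, a chain of the interferon gamma receptor, fell by 2.59 (SE 0.27, adjusted p = 0.000726), Tnfrsf10b, the mouse TRAIL receptor, fell by 1.78 (SE 0.39, adjusted p = 0.0155), and Tnfrsf1b, a TNF receptor, rose by 1.01 (SE 0.14, adjusted p = 0.00256). By clone size 2 receptors rose and 2 fell (median -0.19 against 0.01), and Ifngr2 fell by 4.08 (SE 0.34, adjusted p = 0.00321). Of 14 death receptor signaling genes, 4 rose and 1 fell by Pdcd1, with a median of 0.13 against -0.01, and 4 rose by clone size, with a median of 0.18 against 0.01, the last count near the share over all genes.

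Of 17 drivers of type 1 cytokines tested by Pdcd1 in Cd8 cells, 5 rose and 4 fell, with a median of -0.11 against -0.01. Il12rb1 and Il12rb2, the chains of the IL-12 receptor, had 1.10 ± 0.11 and -1.90 ± 0.39, and Nfatc1, an NFAT factor, had 1.003 ± 0.16. By clone size 6 rose and 1 fell (median 0.05 against 0.01), among them Tbx21, the T-bet gene, at 1.28 ± 0.10. Of 10 genes of cytokine mRNA decay, 2 fell by Pdcd1, a count near the share over all genes. Zfp36, which encodes tristetraprolin, a protein that destabilizes Tnf mRNA, fell by 0.81 (SE 0.17, adjusted p = 0.0129), and Zc3h12a, the Regnase-1 gene, fell by 0.61 (SE 0.18, adjusted p = 0.0405), both by edgeR. Their median was -0.14 against -0.01 over all genes by Pdcd1 and -0.15 against 0.01 by clone size. Of 14 genes of recent T cell activation, 4 rose and 2 fell by Pdcd1 and 4 rose and 1 fell by clone size (medians -0.06 against -0.01 and 0.04 against 0.01), with the chemokine gene Ccl3 at 2.27 ± 0.23 and 2.83 ± 0.26.

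Among the other TNF ligands, 1 of 10 rose and 3 fell by Pdcd1 in Cd8 cells (median 0.49 against -0.01). Tnfsf13b, the BAFF gene, rose by 3.28 (SE 0.33, adjusted p = 0.00067), and Lta, which lies beside Tnf in the genome and encodes lymphotoxin alpha, fell by 1.19 (SE 0.34, adjusted p = 0.0389), both by edgeR. By clone size 2 of 9 rose and 3 fell (median 0.28 against 0.01), and Lta fell by 1.28 (SE 0.31, adjusted p = 0.0319). Heat shock and handling genes moved with these comparisons, as 7 of 13 fell by Pdcd1 and 1 rose and 3 fell by clone size (medians -0.30 against -0.01 and -0.06 against 0.01), with Jun at -1.17 ± 0.21 and -1.12 ± 0.22. Their part in the levels of the members was not tested.

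Between the groups, where 0.120% of all genes were called in Cd8, 2.11% in Cd4 and 6.43% in co-receptor-negative cells, 1 of 18 drivers rose in Cd8 cells, Eomes, a T-box factor (1.15 ± 0.08, adjusted p = 0.0475, edgeR). In Cd4 cells 2 of 17 rose, Eomes at 2.69 ± 0.34 and Runx3, a Runx factor of cytotoxic cells, at 0.70 ± 0.11 (medians of the list 0.00 against -0.01 and 0.13 against -0.01). In co-receptor-negative cells 3 of 18 rose and 1 fell, with Il12rb1 at 0.50 ± 0.10 and Tbx21 at -0.67 ± 0.10 (median 0.15 against 0.00). Of 14 activation genes, 3 rose in Cd4 cells, among them the chemokine genes Ccl4 at 3.36 ± 0.21 and Ccl3 at 3.30 ± 0.43 (median 0.09 against -0.01). In co-receptor-negative cells 3 rose and 2 fell (median -0.17 against 0.00), and in Cd8 cells none was called (median 0.13 against -0.01). Of 11 receptors, 1 rose in Cd4 cells (Tnfrsf1b, 0.65 ± 0.09) and 3 in co-receptor-negative cells (Ifngr2 1.14 ± 0.12, Il2ra 1.01 ± 0.11 and Tnfrsf1b 0.40 ± 0.06), with medians of 0.18 against -0.01 and 0.19 against 0.00.

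The genes whose levels ran most like each member were sought over 24 sums of pool, lineage and Pdcd1 class, among genes with a mean of at least 10 CPM, as a description without a test. They were Gimap7, Rnasek and Anapc4 for Ifng (Spearman's rho 0.90, 0.89 and 0.89), Wasf2, Prpsap1 and Gm26532 for Tnf (Spearman's rho 0.83, 0.82 and 0.81), Spg7, Polg and Creb1 for Il2 (Spearman's rho 0.85, 0.83 and 0.82), Sorl1, Serpinb9 and Tmco4 for Fasl (Spearman's rho 0.88, 0.88 and 0.86) and Ehd4, Atp6v1b2 and Chn2 for Tnfsf10 (Spearman's rho 0.91, 0.88 and 0.88). The sums of a pool share its library, and Il2 averaged 5.86 CPM over them.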

How the data were processed

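Single T cells from 4 bone marrow pools were profiled by 5′ gene expression and TCR sequencing. Per the submitters' processing notes and the deposited files, the authors made UMI counts per gene and cell, not normalized, with Cell Ranger 6.1.2 on GRCm38 (annotation release not given in the sources used here), and deposited TCR contigs with their UMI counts per cell. All 89192 contigs could be used, and 35931 kept cells had a TRA and a TRB chain, for which the contig with most UMIs was taken.

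Barcodes needed 200 or more genes and a mitochondrial share of UMIs of 15% or less. Doublets were called by Scrublet (scanpy 1.11.5, expected rate 0.05), and where its own threshold marked under 0.5% of a pool, in 3 of 4 pools, the top-scoring 5% were taken out. Cells were assigned to lineages by co-receptor UMIs and to clonotypes within a pool. UMI counts were summed per pool and class of at least 20 cells and tested over all genes by the quasi-likelihood test of edgeR 4.0.16 (R 4.3.3) with TMM normalization, filterByExpr and Benjamini-Hochberg adjustment at 0.05. Classes of the same pool were compared with the pool as a block, and an SE is the log2 difference divided by the root of F. DESeq2 1.42.0, RLE normalization, no filter, a replicate block, leaving out each pool, other gates, paired chains, 1 cell per clonotype and thinning to 2000 UMIs were alternatives. Those by clone size and without the largest clonotypes were chosen after seeing the data. Shares carry 95% Wilson intervals, 0 counts a limit of 3 counts, and both cover counting error only. On simulated counts edgeR recovered 192 to 200 of 200 changed genes in 6 comparisons of 11640 to 13330 genes. It also made 5 to 12 false calls in each. Whether recovery is as high for differences as small, or counts as low, as those of the members was not tested.

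Some genes are not reported here. The members and gene lists were chosen with earlier results of these data known. All members are given in every comparison, and from each list up to 4 genes with the largest log2 difference among those called, of which some are printed. The pools are replicates of 2 mice each. P-values of the gene tests are judged against the spread between pools, estimated with information shared over all genes. Small ones thus do not rest on the spread of the 2 pools per group alone. Promoters are from RefSeq on GRCm38.p6 and gene positions from GENCODE M21, and all 5 members matched.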

Additional observations from a re-analysis of the deposited data

Results flagged for a closer look

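In 6 cases the effect of Pdcd1 or of clone size on a member differed between the groups of pools, by a test of the difference itself or because all pools of one group moved one way and all pools of the other the opposite way (n = 2 pools per group). The log2 difference of Tnf between Cd8 cells with and without Pdcd1 ran from -1.54 to -0.23 in the Runx1::Runx1t1 pools and from 0.42 to 0.58 in the control pools, and the interaction was -1.51 ± 0.38 (SE, edgeR adjusted p = 0.0557). In Cd4 cells that of Fasl ran from 0.23 to 0.54 in the Runx1::Runx1t1 pools and from -0.93 to -0.72 in the control pools, with an interaction of 1.25 ± 0.17 (SE, edgeR adjusted p = 0.00385). In co-receptor-negative cells that of Fasl ran from -0.07 to 0.11 in the Runx1::Runx1t1 pools and from -1.61 to -0.83 in the control pools, with an interaction of 1.26 ± 0.22 (SE, edgeR adjusted p = 0.0202). For Tnfsf10 in the same cells it ran from 0.01 to 0.27 in the Runx1::Runx1t1 pools and from -0.88 to -0.35 in the control pools, opposite in sign, but the interaction of 0.83 ± 0.34 (SE, edgeR adjusted p = 0.686) did not pass the test.

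By clone size, the log2 difference of Tnf between expanded and single-cell Cd4 clonotypes ran from -0.27 to 0.13 in the Runx1::Runx1t1 pools and from 0.81 to 1.08 in the control pools, with an interaction of -1.01 ± 0.18 (SE, edgeR adjusted p = 0.0406). That of Fasl ran from 1.13 to 1.38 in the Runx1::Runx1t1 pools and from -0.31 to 0.13 in the control pools, with an interaction of 1.37 ± 0.17 (SE, edgeR adjusted p = 0.00908). The libraries on which each call rests are named beside it above.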

How the results depend on the processing

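The replicate numbers of the groups were fitted as a block in one alternative. Nothing in the labels says that a number marks a shared day or batch, and with 2 pairs the correlation of the deviations of same-numbered pools (0.396 in Cd8, 0.352 in Cd4 and 0.520 in co-receptor-negative cells, across genes) does not show a pairing. With the replicate block edgeR called 3 members between the groups in Cd8 cells (Ifng 0.42, adjusted p = 0.0256, Fasl 0.64, adjusted p = 0.0112 and Tnfsf10 0.59, adjusted p = 0.0273), 1 in Cd4 cells and 1 in co-receptor-negative cells (Ifng, -0.35, adjusted p = 0.0193). Over all genes it called 939, 409 and 1767 in the 3 lineages, against 16, 246 and 823 without the block. Genome-wide counts moved by setting as well, since DESeq2 called 868, 320 and 859 of them. Depth limits Il2 most, since Cd8 cells with Pdcd1 held 1 to 16 Il2 UMIs per pool.

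The number of members called was 0 for the groups in Cd8, 1 for the groups in Cd4, 0 for the groups in co-receptor-negative, 0 for the Pdcd1 interaction in Cd8, 1 for Pdcd1 in Cd4, 1 for the Pdcd1 interaction in Cd4, 0 for Pdcd1 in co-receptor-negative, 1 for the Pdcd1 interaction in co-receptor-negative, 0 for the clone size interaction in Cd8, 2 for clone size in Cd4, 2 for the clone size interaction in Cd4, 1 for clone size in co-receptor-negative, 0 for the clone size interaction in co-receptor-negative, 2 for co-receptor-negative against Cd8 and 1 for co-receptor-negative against Cd4 in the values given above. By DESeq2 it was 1 for the groups in Cd8, 1 for the groups in co-receptor-negative, 1 for the Pdcd1 interaction in Cd8, 0 for Pdcd1 in Cd4, 1 for the clone size interaction in Cd8, 1 for the clone size interaction in Cd4 and 0 for clone size in co-receptor-negative. Without a filter on low counts it was 2 for the groups in Cd4, 1 for the Pdcd1 interaction in Cd8, 3 for Pdcd1 in Cd4, 3 for the Pdcd1 interaction in Cd4, 2 for Pdcd1 in co-receptor-negative, 2 for the Pdcd1 interaction in co-receptor-negative, 1 for the clone size interaction in Cd8 and 2 for clone size in co-receptor-negative. With RLE normalization it was 2 for Pdcd1 in Cd4. Without doublet removal it was 2 for Pdcd1 in Cd4. With a stricter co-receptor gate it was 1 for Pdcd1 in co-receptor-negative, 0 for clone size in co-receptor-negative and 2 for co-receptor-negative against Cd4. In cells with paired chains it was 1 for Pdcd1 in co-receptor-negative. With 1 cell per clonotype it was 0 for the groups in Cd4, 1 for the groups in co-receptor-negative, 0 for Pdcd1 in Cd4, 2 for Pdcd1 in co-receptor-negative, 5 for co-receptor-negative against Cd8 and 3 for co-receptor-negative against Cd4. With cells thinned to 2000 UMIs it was 0 for Pdcd1 in Cd4 and 2 for clone size in co-receptor-negative. With 2 or more Pdcd1 UMIs it was 3 for Pdcd1 in Cd4 and 1 for Pdcd1 in co-receptor-negative. Without the largest clonotype of each pool it was 0 for the groups in Cd4. In expanded clonotypes it was 0 for the groups in Cd4. In single-cell clonotypes it was 0 for the groups in Cd4, 1 for the groups in co-receptor-negative, 0 for Pdcd1 in Cd4 and 2 for Pdcd1 in co-receptor-negative. Of 15 shares of cells, 6 did not overlap between the groups of pools after thinning, against 12. The number of all genes called moved with the setting as well. Without a filter on low counts edgeR called 864 of 19377 genes for the groups in Cd8, against 16 of 13330 with it. For the clone size interaction in Cd8 it called 654 of 18963 against 0 of 12746. The counts of members, here and with 1 pool left out, are thus not results about the members alone.

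The sign of the log2 difference turned in the following, with the value under each setting and none of the causes tested. By DESeq2 it was -0.013 (Ifng) for the Pdcd1 interaction in Cd8. Without a filter on low counts it was -0.015 (Tnf) for clone size in Cd8, 0.014 (Ifng) for the clone size interaction in Cd8 and 1.6e-06 (Tnf) for co-receptor-negative against Cd4. Without doublet removal it was -0.059 (Il2) for Pdcd1 in Cd8, -0.0046 (Tnf) for clone size in Cd8 and 0.0095 (Tnf) for co-receptor-negative against Cd4. With a stricter co-receptor gate it was 0.020 (Tnf) and 0.00036 (Tnfsf10) for the groups in co-receptor-negative, -0.065 (Ifng) for clone size in co-receptor-negative and 0.032 (Tnf) for co-receptor-negative against Cd4. In cells with paired chains it was -0.27 (Il2) for Pdcd1 in Cd8, 0.19 (Il2) for Pdcd1 in co-receptor-negative and 0.027 (Tnf) for co-receptor-negative against Cd4. With 1 cell per clonotype it was -0.054 (Ifng) for the groups in Cd8, -0.048 (Ifng), 0.0018 (Tnf) and -0.066 (Fasl) for the groups in Cd4 and 0.16 (Ifng) and 0.075 (Tnf) for co-receptor-negative against Cd4. With cells thinned to 2000 UMIs it was 0.16 (Il2) for the groups in co-receptor-negative, -0.39 (Il2) for Pdcd1 in Cd8, 0.019 (Tnf) and 0.17 (Fasl) for Pdcd1 in Cd4, 0.16 (Il2) and 0.11 (Tnfsf10) for Pdcd1 in co-receptor-negative, -0.072 (Tnf) for clone size in Cd8, 0.39 (Il2) for clone size in Cd4 and -0.0068 (Tnfsf10) for co-receptor-negative against Cd4. With 2 or more Pdcd1 UMIs it was -0.87 (Il2) for Pdcd1 in Cd8. With clonotypes of 5 or more cells it was -0.11 (Tnf) for clone size in Cd8 and 0.058 (Il2) for clone size in Cd4. Without the largest clonotype of each pool it was 0.0034 (Il2) for Pdcd1 in co-receptor-negative and 0.036 (Il2) for clone size in Cd4. In expanded clonotypes it was -0.15 (Ifng) for the groups in Cd8, 0.040 (Ifng) and 0.21 (Fasl) for the groups in co-receptor-negative, -0.023 (Ifng) and -3.37 (Il2) for Pdcd1 in Cd8, -0.25 (Ifng) for Pdcd1 in Cd4 and 0.093 (Fasl) for Pdcd1 in co-receptor-negative. In single-cell clonotypes it was -0.13 (Ifng) and 0.0030 (Tnf) for the groups in Cd8, -0.15 (Ifng), 0.15 (Tnf) and -0.19 (Fasl) for the groups in Cd4 and 0.21 (Tnf) for Pdcd1 in Cd8. With 1 cell per clonotype the difference in the share of Cd4 cells with an Ifng UMI was -2.54 percentage points. With cells thinned to 2000 UMIs the difference in the share of co-receptor-negative cells with an Il2 UMI was 0.13 percentage points. With cells thinned to 2000 UMIs the difference in the share of co-receptor-negative cells with a Tnfsf10 UMI was 0.010 percentage points.

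Leaving out 1 pool at a time, which leaves a group with 1 pool that is assumed to vary like the others, gave 0 to 2 calls for the groups in Cd8, 0 to 1 calls for the groups in Cd4, 0 to 2 calls for the groups in co-receptor-negative, 0 to 1 calls for the Pdcd1 interaction in Cd8, 0 to 2 calls for Pdcd1 in Cd4, 0 to 2 calls for the Pdcd1 interaction in Cd4, 0 to 2 calls for Pdcd1 in co-receptor-negative, 0 to 1 calls for the Pdcd1 interaction in co-receptor-negative, 0 to 3 calls for the clone size interaction in Cd8, 1 to 3 calls for clone size in Cd4, 0 to 2 calls for the clone size interaction in Cd4, 0 to 2 calls for clone size in co-receptor-negative, 0 to 1 calls for the clone size interaction in co-receptor-negative and 1 to 5 calls for co-receptor-negative against Cd8. The differences that turned ran from -0.50 to 0.028 (Tnf) for the groups in Cd8, -0.31 to 0.12 (Tnf) and -0.19 to 0.0096 (Tnfsf10) for the groups in co-receptor-negative, -0.33 to 0.43 (Il2) for Pdcd1 in Cd8, -0.16 to 0.25 (Ifng) and -1.61 to 0.74 (Il2) for the Pdcd1 interaction in Cd8, -0.40 to 0.0078 (Tnf) and -0.39 to 0.13 (Fasl) for Pdcd1 in Cd4, -0.11 to 0.13 (Il2) for Pdcd1 in co-receptor-negative, -0.28 to 0.22 (Tnf) for the Pdcd1 interaction in co-receptor-negative, -0.27 to 0.45 (Tnf) for clone size in Cd8, -0.17 to 0.20 (Ifng) and -1.86 to 0.90 (Il2) for the clone size interaction in Cd8, -0.14 to 0.0068 (Il2) for clone size in Cd4, -0.032 to 0.38 (Ifng) and -0.54 to 0.12 (Il2) for the clone size interaction in Cd4, -0.19 to 0.066 (Tnf) for clone size in co-receptor-negative, -0.53 to 0.092 (Tnf) for the clone size interaction in co-receptor-negative and -0.059 to 0.089 (Tnf) and -0.076 to 0.25 (Fasl) for co-receptor-negative against Cd4.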

Other observations

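Cells with UMIs of both Cd4 and a Cd8 gene, 591, 750, 202 and 207 in the Runx1::Runx1t1 and then the control pools, entered no comparison. They had Ifng at 152, 163, 95.04 and 128 CPM, Tnf at 50.6, 44.4, 40.6 and 69.8 and Il2 at 9.97, 6.75, 3.20 and 10.6. Fasl stood at 91.1, 126, 68.3 and 73.7 and Tnfsf10 at 19.4, 25.1, 18.2 and 14.5. Their median depth was 7464, 7814, 7412 and 8123 UMIs, against 7599, 7048, 6793 and 6887 in Cd8 cells, and the part of doublets left in them was not tested.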
